A study of Mus musculus with 2 samples.

Results

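The genes that write and erase cytosine methylation were followed in a pair of cultures of mouse embryonic stem cells, of which 1 had the genotype MOF +/+ (called wild type below) and 1 the genotype MOF-/- (called Mof null). The set comprises 9 genes, chosen by role with earlier results of these data known: Dnmt1, Uhrf1, Dnmt3a, Dnmt3b, Dnmt3l, Tet1, Tet2, Tet3 and Tdg. Every probe set annotated to exactly 1 of these genes was taken, which gave 20 probe sets for 8 genes, out of 34945 probe sets for 18193 genes in all. All 20 lay above the level filter of 6.02 on the log2 scale, the median of all values, on both arrays. Tdg had no probe set that names it alone, since the 3 that name it also name another gene, so its level is not analysed here.

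Embryonic stem cells can form every tissue of the embryo proper, and Mof, whose gene symbol is Kat8, is a histone H4 acetyltransferase. Both lines were of the C57BL/6 strain, were derived at 3.5 days post coitum, were at passage 15 to 18, and had been kept with LIF on feeder fibroblasts of mouse embryos, followed by 2 passages without feeders. Each culture's total RNA was read on 1 Affymetrix array, and values are RMA values on a log2 scale. The labels do not give the part of Mof that was deleted or the number of clones behind a culture. With 1 array per genotype, no difference below has a replicate error or a test, every difference is Mof null minus wild type, and counts use a fixed size of 2-fold.

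In mammals DNA methylation is placed on cytosines of CpG dinucleotides. Dnmt3a and Dnmt3b, helped by the catalytically inactive cofactor Dnmt3l, write new marks, while Dnmt1 copies existing marks after replication at sites that Uhrf1 recognises. Tet enzymes oxidise the methyl group, and the glycosylase Tdg cuts out oxidised bases for repair. Mouse embryonic stem cells are known for a high level of the de novo enzymes together with Tet1 and Tet2.

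The promoter windows of 4 members are shown, a choice made after their values were seen. Dnmt1 and Uhrf1 are the maintenance genes, and Dnmt3b and Dnmt3l are de novo genes that were both higher in Mof null and have unlike CpG content. Sequences are from RefSeq on GRCm38.p6, run 5′ to 3′ along the gene's strand from 250 bases before to 50 bases after an annotated start, and carry CpG dinucleotides in capitals. Where a gene had several windows, the one with the most CpG is printed. The windows lie at chr9:20952574-20952873 (minus strand, Dnmt1), chr17:56304063-56304362 (plus strand, Uhrf1), chr2:153649199-153649498 (plus strand, Dnmt3b) and chr10:78042037-78042336 (plus strand, Dnmt3l).
Dnmt1: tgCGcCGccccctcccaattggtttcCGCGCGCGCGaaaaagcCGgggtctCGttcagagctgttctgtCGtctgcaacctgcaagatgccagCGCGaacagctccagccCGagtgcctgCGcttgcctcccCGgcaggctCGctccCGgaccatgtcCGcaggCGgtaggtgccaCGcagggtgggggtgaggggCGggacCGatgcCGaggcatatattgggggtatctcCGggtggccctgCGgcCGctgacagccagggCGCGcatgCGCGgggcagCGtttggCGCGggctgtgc
Uhrf1: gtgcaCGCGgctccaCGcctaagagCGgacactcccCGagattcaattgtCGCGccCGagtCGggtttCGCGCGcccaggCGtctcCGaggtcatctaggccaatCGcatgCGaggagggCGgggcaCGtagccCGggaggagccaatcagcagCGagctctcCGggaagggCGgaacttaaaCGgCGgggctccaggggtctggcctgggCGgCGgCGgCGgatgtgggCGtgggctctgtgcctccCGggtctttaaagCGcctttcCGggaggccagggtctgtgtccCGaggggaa
Dnmt3b: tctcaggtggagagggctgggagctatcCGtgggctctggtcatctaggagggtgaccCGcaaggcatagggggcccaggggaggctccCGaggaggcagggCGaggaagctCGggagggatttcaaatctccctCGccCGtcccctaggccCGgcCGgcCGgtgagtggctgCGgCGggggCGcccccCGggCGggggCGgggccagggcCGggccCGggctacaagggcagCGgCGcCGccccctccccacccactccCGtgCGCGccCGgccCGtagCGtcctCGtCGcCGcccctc
Dnmt3l: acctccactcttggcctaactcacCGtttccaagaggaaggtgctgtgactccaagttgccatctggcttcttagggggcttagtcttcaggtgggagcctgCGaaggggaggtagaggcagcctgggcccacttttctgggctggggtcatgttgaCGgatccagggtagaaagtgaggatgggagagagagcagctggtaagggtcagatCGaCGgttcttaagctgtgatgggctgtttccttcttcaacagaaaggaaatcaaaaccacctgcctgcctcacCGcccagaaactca

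The windows differed widely in CpG. The printed Dnmt1 and Uhrf1 windows each held 33 CpG and that of Dnmt3b 30, against a median of 7 over 32841 windows of 300 bases. The Dnmt3l window held 6, and the other windows of this gene held 4 and 3. The Tet2 window held 57, more than 99.85% of all windows, and the windows of Tet1, Tet3 and Tdg held 17, 22 and 26. Dnmt3a had 2 overlapping windows with 46 and 47 CpG and one farther downstream with 18. A search of both strands for TTTNGCGC, the core of an E2F site, found it in the printed windows of Dnmt1 and Uhrf1 and in no other of the 16 member windows, whereas 1.38% of all windows hold it. The GC box GGGCGG was in 12 of the 16 member windows and in 35.7% of all windows. CCAAT was in 6 of the 16 and in 37.4% of all windows, and the E-box CACGTG in 3 of the 16 and in 7.15% of all windows. These are matches of letters, not sites shown to be bound. All of these motifs but CCAAT contain CG, and most member windows hold more CpG than the median window. No comparison with windows of like CpG content was made. Several windows belong to the same gene, and those of Dnmt3a overlap in part, so the shares are not read as enrichment.

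**Figure D1:**
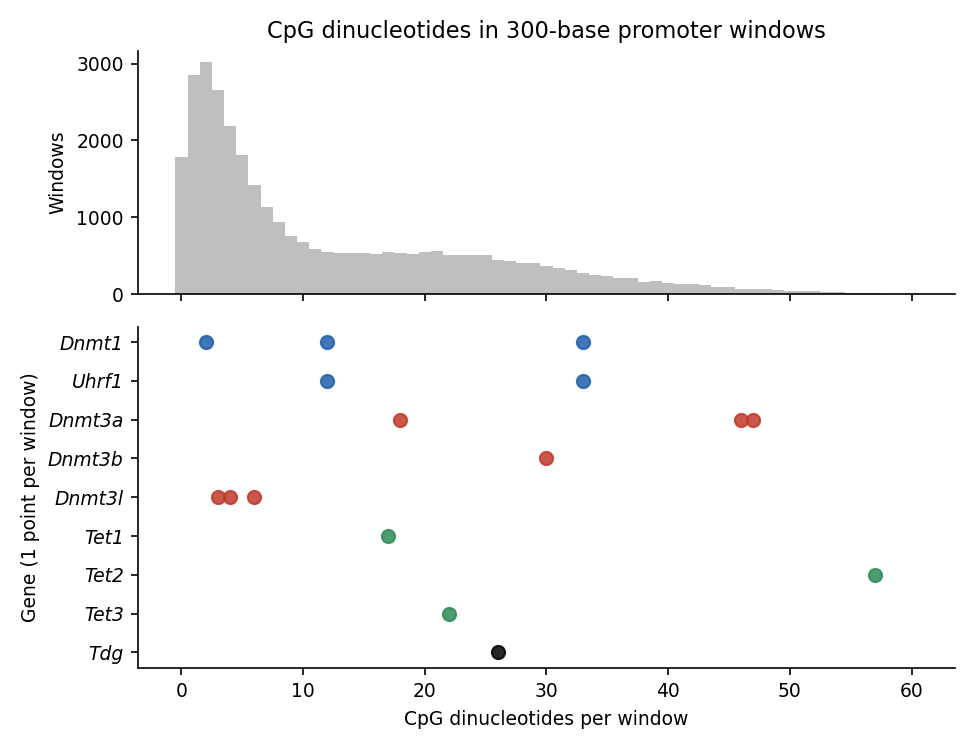
CpG dinucleotides per 300-base promoter window, over all 32841 windows (top, bars, with windows of 60 or more CpG in the last bar) and for each window of the 9 genes (bottom, 1 point per window). The Dnmt3l windows lie between 3 and 6 CpG, while the Tet2 window lies at 57.

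Marker genes were first set against the labelled cell type. Of 29 expressed pluripotency genes 28 had their higher value on the array labelled Mof null, with a median difference of 0.60 and a range from -0.54 to 1.60, and all 29 were above the level filter on both arrays. All 27 expressed fibroblast genes were lower there, with a median of -1.93 and a range from -2.92 to -0.51, and lay above the filter on both arrays, so fibroblast markers were measured in both cultures. The sum of their linear values was 179399 in wild type and 64756 in Mof null, and that of the pluripotency genes 73586 in wild type and 108106 in Mof null. All 18 expressed macrophage genes were lower as well (median -2.03, range -2.77 to -0.13), with linear sums of 31879 and 9702, and 15 of them were above the filter on the array labelled Mof null. No marker can be at 0 on an RMA scale. In bulk RNA, fewer cells of a type and less RNA per cell cannot be told apart, and the part of these markers in the differences below was not tested. Kat8 itself read 8.06 in wild type and 8.37 in Mof null by its 1 probe set. The place of that probe set relative to the deletion is unknown here, so this value does not check the genotype and the labels are used as given.

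The array labelled Mof null gave the higher value for all 5 writer genes and for Tet1, while Tet2 differed by 0.36 and Tet3 by -0.17. Of the 20 probe sets 18 were higher and 2 lower, and 7 passed 2-fold upward and none downward. The 7 became 4 after centring on the median expressed gene, and 4 after lowess correction. Among all expressed probe sets that name 1 gene, 4.49% were at least 2-fold higher. By the brightest probe set of each gene, 7 genes were higher and 1 was lower, with a median of 0.77. All 12015 expressed genes had a median of 0.10, and 56.7% of them were higher. The members were chosen with earlier results of these data known, so comparisons with all genes or probe sets are descriptions and not independent evidence. Dnmt3a and Dnmt3b were at least 2-fold higher, 2 of 8 genes, and none was at least 2-fold lower. With the mean of all probe sets Dnmt3a was at 0.74 and 1 gene passed. Over all expressed genes 5.09% passed 2-fold upward and 11.9% downward. The only spread that could be set beside these values was that between probe sets of 1 gene, a pooled SD of 0.33 over 5362 genes with several expressed probe sets. It holds no variation between cultures.

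**Figure D2:**
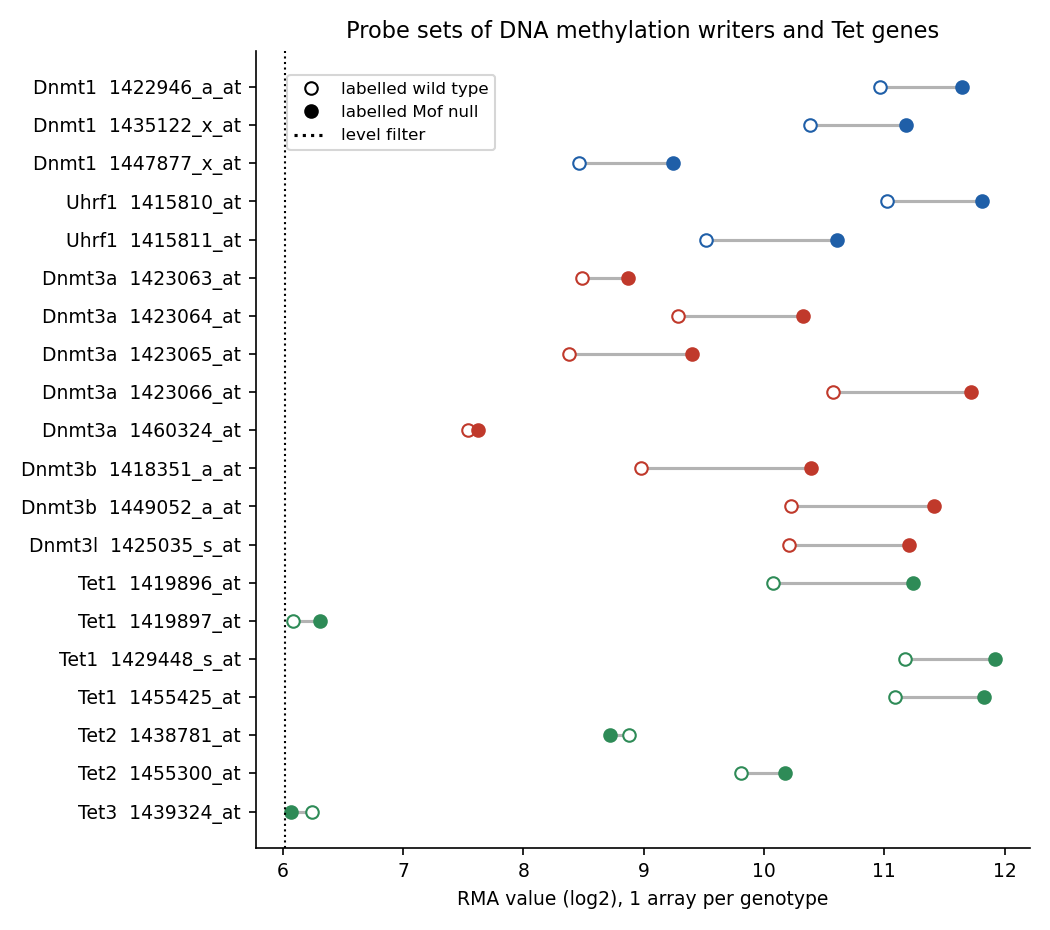
RMA value (log2) of each of the 20 probe sets for wild type (open) and Mof null (filled), 1 array per genotype, with genes coloured by role (maintenance blue, de novo red, Tet green) and the level filter of 6.02 as a dotted line. Filled points lie to the right of open ones in 18 of 20 rows, and the Tet3 probe set and a Tet1 probe set lie near the filter.

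By the brightest probe set of each gene, the 3 de novo genes had the largest differences of the set. By the mean of probe sets Dnmt3a was at 0.74, below Uhrf1 at 0.94 and Dnmt1 at 0.75. Other probe sets of Uhrf1 (1415811_at, 1.09) and Tet1 (1419896_at, 1.16) lay above the single Dnmt3l probe set at 0.99. Dnmt3b, the main de novo enzyme of the early embryo, read 10.2 in wild type and 11.4 in Mof null by its brightest probe set (1449052_a_at), 2.29-fold higher. Its other probe set (1418351_a_at) went from 8.98 to 10.4, a difference of 1.42. Both Dnmt3b probe sets passed 2-fold, and 2.81% of expressed genes had a larger difference than its brightest one.

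Dnmt3a, which shares the catalytic role with Dnmt3b, read 10.6 and 11.7 by its brightest probe set (1423066_at), 2.22-fold higher. Probe sets 1423064_at and 1423065_at showed much the same, the former with 9.28 and 10.3 and the latter with 8.38 and 9.40, differences of 1.04 and 1.02. The remaining pair did not: 1423063_at went from 8.49 to 8.87 and 1460324_at from 7.54 to 7.62, differences of 0.38 and 0.088. All 5 are annotated to the same accession, so the annotation does not separate isoforms of the gene. Their differences spanned 1.06.

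Dnmt3l, which stimulates both enzymes without methylating DNA itself, read 10.2 and 11.2 by its single probe set (1425035_s_at). The difference of 0.99, 1.99-fold, lay just short of 2-fold. The suffix _s_at marks a probe set whose probes can match more than 1 transcript, and no other probe set of Dnmt3l checks it. All 8 de novo probe sets were higher, 5 of them at least 2-fold. Among all expressed probe sets that name 1 gene, 4.49% were at least 2-fold higher, and 56.7% of all expressed genes were higher. Dnmt3a alone gives 5 of the 8, and all were read on the same arrays, so they are not separate evidence.

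The maintenance genes were higher by all 5 of their probe sets, 1 of which passed 2-fold. The shares beside this are again 56.7% of expressed genes higher and 4.49% of expressed probe sets at least 2-fold higher. Dnmt1 read 11.0 and 11.6 by 1422946_a_at, 10.4 and 11.2 by 1435122_x_at, and 8.46 and 9.25 by 1447877_x_at, in each case lower on the array labelled wild type. The differences of these 3 probe sets were 0.68, 0.80 and 0.78, so Dnmt1 was 1.60-fold higher by its brightest probe set, with a range of 0.11 between probe sets. Uhrf1, which binds hemimethylated DNA and brings Dnmt1 to it, went from 11.0 to 11.8 by 1415810_at and from 9.52 to 10.6 by 1415811_at. Those differences were 0.79 and 1.09, and only the second passed 2-fold. The brightest Dnmt3b difference exceeded that of Dnmt1 by 0.51, and Uhrf1 exceeded Dnmt1 by 0.11. The latter is under the pooled SD of 0.33 between probe sets. That SD describes the difference of a single probe set, so it does not measure the spread of a contrast between genes.

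The Tet genes ranged from higher to lower. Tet1, a Tet enzyme abundant in mouse embryonic stem cells, read 11.2 and 11.9 by 1429448_s_at, 11.1 and 11.8 by 1455425_at, and 10.1 and 11.2 by 1419896_at. Those differences were 0.75, 0.74 and 1.16, or 1.68-fold by the brightest, and the fourth probe set (1419897_at) read 6.08 and 6.31, close to the level filter, with a difference of 0.23. Tet2, the other Tet enzyme abundant in these cells, went from 9.81 to 10.2 by 1455300_at, a difference of 0.36, and from 8.87 to 8.72 by 1438781_at, a difference of -0.16. The Tet2 probe sets thus lay on opposite sides of 0, 0.52 apart.

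Tet3, the Tet enzyme of the oocyte and zygote, read 6.24 in wild type and 6.07 in Mof null by its single probe set (1439324_at), a difference of -0.17. Both values lay close to the level filter, where RMA compresses differences. Tet1 exceeded Tet2 by 0.38 and Tet3 by 0.92 in difference, and the brightest Dnmt3b difference exceeded that of Tet3 by 1.37.

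**Figure D3:**
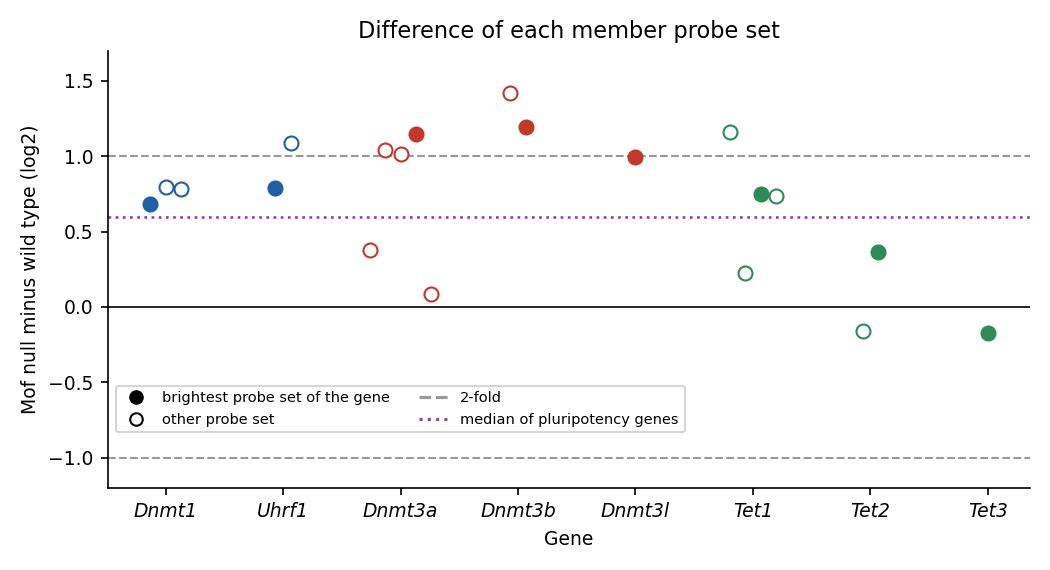
Difference (Mof null minus wild type, log2) of each of the 20 probe sets by gene, 1 array per genotype, with the brightest probe set of a gene filled, 2-fold as dashed lines and the median difference of the pluripotency genes (0.60) dotted. Dnmt3b lies above 1 with both probe sets, while Dnmt3a and Tet1 span 1.06 and 0.93 log2 units and Tet2 lies on both sides of 0.

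The pluripotency genes were also higher on that array, so their median gives another scale. Taking off their median of 0.60 left Dnmt3b at 0.59, Dnmt3a at 0.55 and Dnmt3l at 0.39, left Uhrf1, Tet1 and Dnmt1 at 0.19, 0.15 and 0.083, and turned Tet2 to -0.24 and Tet3 to -0.77. On that scale 6 of 8 genes were still above 0 and none was past 2-fold in either direction. Over the 20 probe sets the difference and the mean level had a Spearman correlation of 0.43, a description of points that share arrays and, in part, genes.

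**Figure D4:**
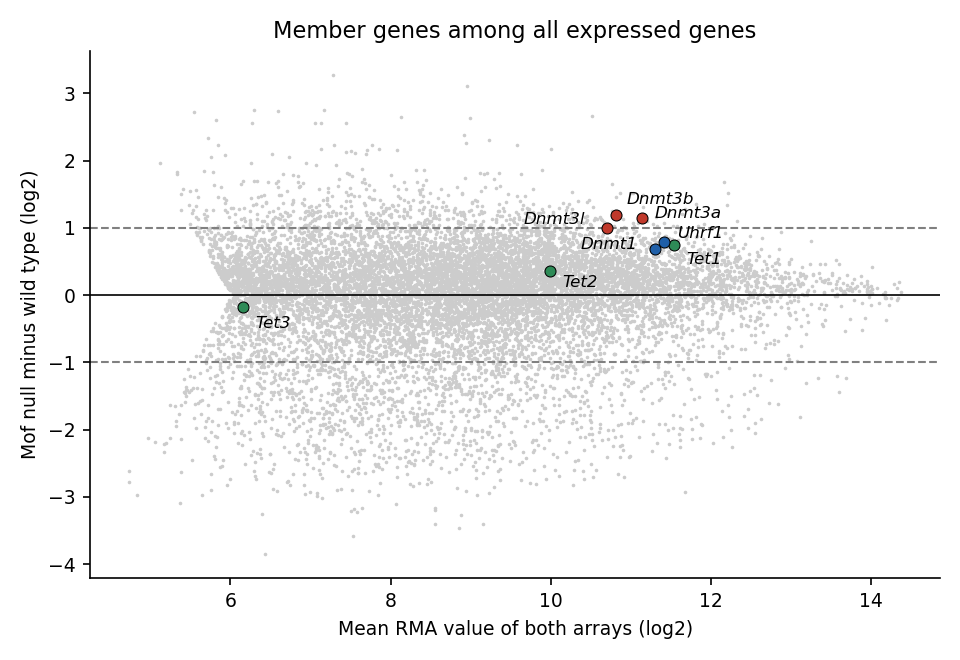
Difference (Mof null minus wild type, log2) against the mean RMA value of both arrays for the 12015 expressed genes (grey) and the 8 member genes (coloured by role as maintenance blue, de novo red and Tet green), each by its brightest probe set. The dashed lines mark 2-fold, and the 5 writers and Tet1 lie between 0.68 and 1.19, while Tet2 lies at 0.36 and Tet3 at -0.17.

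Other genes of the pathway were taken from 6 lists with 92 genes, of which 83 were found and 78 were expressed. Across them 14 genes passed 2-fold upward and 3 downward. The 14 became 10 after centring on the median expressed gene and 10 after lowess correction. They became 11 with the level filter at percentile 75 and 12 with the mean of probe sets, while the 3 stayed at 3 in each. Of the 14, 8 belong to the germline list, whose direction was known when it was set, and Apobec2 and Gnmt passed the level filter on 1 array alone, so the total is not read against the background. Of all expressed genes 56.7% were higher, 5.09% passed 2-fold upward and 11.9% passed 2-fold downward. These are the shares to hold beside the counts of each list below.

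Of 15 partners of maintenance and targeting 12 were higher and 1 passed 2-fold, a share near the background of 5.09%, and the median was 0.46. The gene past 2-fold was Dppa3, an oocyte and naive-cell protein that protects methylation from Tet oxidation in the zygote and limits Uhrf1, which went from 7.67 to 9.05. Next was Cdca7, a partner of the remodeller Hells, which went from 9.50 to 10.4, 1.91-fold higher.

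Of 7 genes that read methylated DNA 5 were lower and 2 higher, with a median of -0.60. Past 2-fold were 2 genes, both downward, where 11.9% of all expressed genes passed downward. The zinc finger reader Zbtb4 went from 9.44 to 7.33, 4.32-fold lower, and its 3 expressed probe sets lay between -2.28 and -2.0. Mbd1, a methyl-CpG binding repressor, went from 9.92 to 8.32, 3.03-fold lower, but its 3 expressed probe sets ranged from -1.60 to -0.24. The fibroblast and macrophage genes had medians of -1.93 and -2.03 on the same arrays, and their part in these differences was not tested.

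CXXC proteins, which bind unmethylated CpG, showed no member past 2-fold among 6 expressed genes, with a median of 0.20. The largest were the methyltransferase gene Kmt2b, which went from 9.58 to 9.96, and Cxxc5, which went from 9.51 to 9.79. Cxxc5 had another expressed probe set at -0.20.

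Genes of base excision and deamination were mixed. The median of 19 expressed genes was 0.53, with 15 above 0, 3 past 2-fold upward and 1 past 2-fold downward. Over all expressed genes 5.09% passed upward and 11.9% downward. The glycosylase genes Mutyh and Ung went from 7.77 to 9.07 and from 9.52 to 10.6, 2.47-fold and 2.08-fold higher. The deaminase family member Apobec2 went from 5.94 to 7.24, although its other expressed probe set differed by 0.14, and its lower value lay under the level filter. Gadd45g, a stress-response gene that has been linked to demethylation, went from 9.69 to 7.82, 3.67-fold lower. Its family members Gadd45a and Gadd45b went the other way, with differences of 0.44 and 0.74.

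Methyl donor and oxoglutarate genes serve the supply or use of S-adenosylmethionine, which the writers need, and of oxoglutarate, the cosubstrate of Tet enzymes. Their counts thus give no direction of supply. Of 17 genes 12 were higher and 5 lower, with a median of 0.35, where 56.7% of all expressed genes were higher. Past 2-fold upward were 2, where 5.09% of all expressed genes passed. The 2 past 2-fold were Idh2, a mitochondrial isocitrate dehydrogenase that makes oxoglutarate, from 9.54 to 10.7, with another expressed probe set at 0.32, and Gnmt, which consumes S-adenosylmethionine, from 5.51 to 6.60, which passed the level filter on the array labelled Mof null alone.

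Germline genes whose promoters are silenced by DNA methylation in somatic cells were higher without exception among the 14 expressed of 16, 8 of them at least 2-fold, with a median of 1.09, and 13 of the 14 were above the level filter in wild type. Mael, needed for piRNA silencing of transposons, went from 8.27 to 10.1, 3.47-fold higher. Sycp3 of the synaptonemal complex and the piRNA helicase gene Mov10l1 went from 8.35 to 9.76 and from 7.58 to 8.98. Asz1, Slc25a31 and Tex11, which act in male germ cells, differed by 1.25, 1.23 and 1.18. This list was set with the higher level of germ cell genes in these arrays known, so its direction is not independent evidence.

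**Figure D5:**
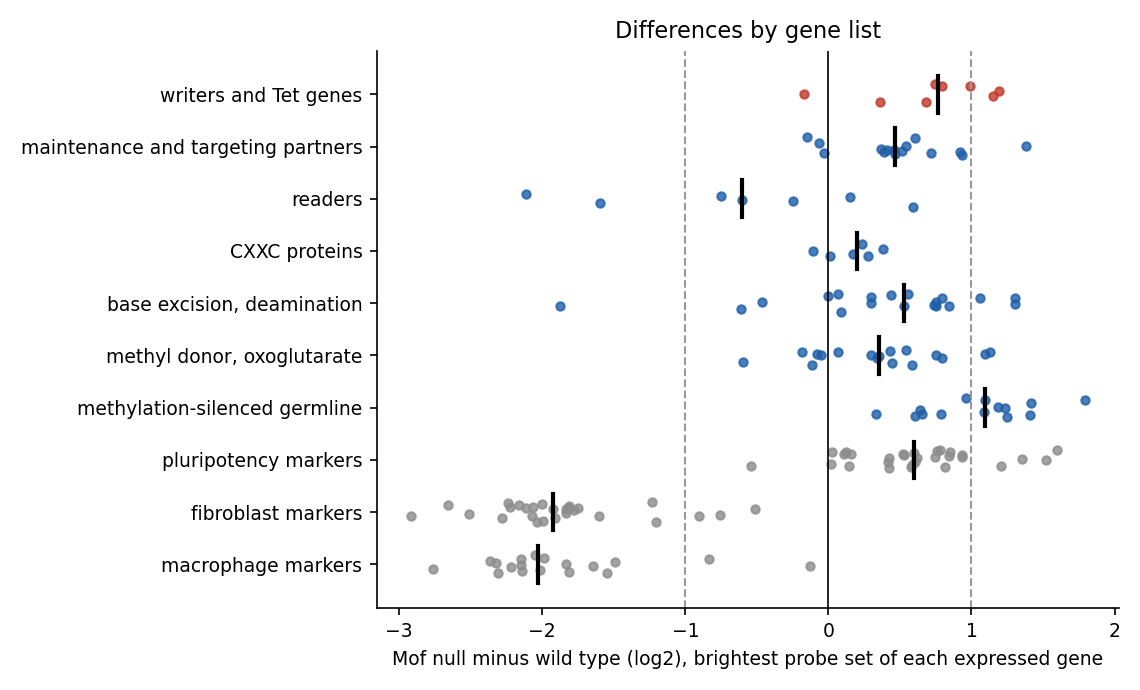
Difference (Mof null minus wild type, log2) of each expressed gene by its brightest probe set, for the writers and Tet genes (red), the 6 pathway lists (blue) and the marker lists (grey), with the list median as a black bar and 2-fold as dashed lines. The writers and Tet genes have a median of 0.77, between the germline list at 1.09 and the pluripotency genes at 0.60, while the fibroblast and macrophage genes lie near -2.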

How the data were processed

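The deposited table gives a log2 value for each of 45101 probe sets on each array, computed by RMA with affy under R 2.10.0, per the submitters' processing notes. The log2 scale was read from the values, which ran from 2.77 to 14.7. RMA quantile-normalizes arrays, so a change of most transcripts in 1 direction cannot be seen. Names came from the platform annotation, and the 34945 probe sets with 1 gene were kept. A gene was represented by its brightest probe set, by the mean of the arrays, and counted as expressed when its higher value reached 6.02, percentile 50 of all values. Differences were counted at 2-fold, and no test was run with 1 array per genotype. The named genes of a pathway list are those past 2-fold, at most 6, or its 2 largest where fewer than 2 were. Gadd45a and Gadd45b are named in addition, beside Gadd45g. The members, lists and rules were chosen with earlier results of these data known. The counting was tested on simulated data. Promoter windows were searched as plain text. Alternatives are listed in the closing section. Protein sequences were not used here. Scripts ran in Python 3.11.15 with pandas 2.3.3, numpy 2.4.6, statsmodels 0.14.6 and matplotlib 3.10.9.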

Additional observations from a re-analysis of the deposited data

How the results depend on the processing

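Under the mean of all probe sets, no or a stricter level filter, dropping _s_at and _x_at probe sets, centring on the median gene, lowess correction and quantile normalization, the sign of each member's difference was unchanged wherever a value could be had. A level filter cannot change a gene's own difference, so those settings could not alter a sign. Centring takes 0.10 off every gene, less than the smallest difference above 0 (Tet2, 0.36), so it could not either. RMA values are already quantile-normalized, so repeating that step could change little. Dropping _s_at and _x_at probe sets changed the value of Tet1 alone, to 0.74. The sizes for Tet2 and Tet3 were small and moved: Tet2 went from 0.36 to 0.10 with the mean of probe sets and 0.22 with lowess correction, and Tet3 from -0.17 to -0.28 with centring and -0.29 with lowess correction. Without _s_at and _x_at probe sets Dnmt3l had no value, and at percentile 75 Tet3 had none. With the mean of probe sets Dnmt3a was 0.74 and 1 gene was past 2-fold. After taking off the median of the pluripotency genes the differences were 0.083 (Dnmt1), 0.19 (Uhrf1), 0.55 (Dnmt3a), 0.59 (Dnmt3b), 0.39 (Dnmt3l), 0.15 (Tet1), -0.24 (Tet2, reversed) and -0.77 (Tet3), with a median of 0.17, 0 genes and 0 probe sets past 2-fold, and 1 pathway gene higher and 8 lower, from 14 and 3. This scaling takes the same amount off every gene, so these shifts follow from its construction. Probe sets past 2-fold numbered 4 after centring and 4 after lowess correction. At 1.5-fold, 6 genes and 14 probe sets were higher, with 31 pathway genes higher and 7 lower. At 4-fold, 0 genes, 0 probe sets and 0 pathway genes were higher and 1 pathway gene lower. Arrays were 1 per genotype, so their number limits the precision, and leaving out an array was not possible. Signal near the level filter limits Tet3.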
